A study of Mus musculus with 12 samples.

Results

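The genes described here encode the Wnt ligands, their receptors and co-receptors, the R-spondins and the secreted inhibitors of the pathway, with Axin2, in mouse epididymal white adipose tissue (eWAT). They were found in the array's annotation by symbol: every numbered Wnt, Fzd, Sfrp, Dkk and Rspo gene, together with Lrp5, Lrp6, Wif1, Axin2 and Lgr4. Of 46 names listed, 43 genes of the 14860 measured had a probe set row that carried their symbol alone. Fzd9, Lgr4 and Dkk1 had no such row. The other 14817 genes serve as the background.

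Mice were kept at 30°C (thermoneutral), at 4°C, at –10°C or at –10°C/–20°C, here also called the coldest group, with 3 arrays for each and 12 in all. The study's methods state male C57BL/6J mice bought at 7 to 8 weeks of age, with no transgene or drug named. The 3 cold groups first spent 1 week at 18°C, and their cold exposure, counted from 4°C onward, lasted 5 weeks. One group stayed at 4°C, the –10°C mice spent their last 3 weeks at –10°C around the clock, the –10°C/–20°C mice spent them at –20°C by day and –10°C by night, and the 30°C mice were moved straight to 30°C for an equal time. Array labels shorten the coldest group to –20°C. The labels number biological replicates but name no mouse, litter, cage or day, and do not say whether RNA was pooled. Each p-value therefore sets a difference between group means against the spread between arrays, which need not be that between single mice.

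Expression was measured on exon arrays as log2 signal, 1 value per gene and array. A gene counted as above background where its signal passed 4.52, the 95th percentile of the mean signals of 718 olfactory receptor genes, which fat should not express. Between 10210 and 10541 genes passed this level on each array. Signals of different probe sets depend on the probes, so no gene's level is set against that of another. The 8 adipocyte markers averaged between 10.32 and 11.40 on every array, which marks fat but does not tell the depot. The 9 epididymis and testis markers averaged 3.44 to 4.39, and 5 of these 9 were below background on every array. Arrays of the same group correlated at r = 0.974 to 0.993 across genes, and arrays of different groups at 0.966 to 0.992. The study's own array names come in 2 forms. One form covers 4 arrays (replicates 1 and 2 of 30°C and of 4°C), the other covers the remaining 8, and what the form marks is not given in the sources used here.

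Wnt proteins are secreted, lipid-modified ligands that bind Frizzled receptors together with the co-receptors Lrp5 or Lrp6, which spares β-catenin from its destruction complex and lets it act with TCF/LEF factors in the nucleus. R-spondins keep Frizzled receptors on the surface, secreted frizzled-related proteins (Sfrp) and Wif1 bind Wnts outside the cell, Dickkopf proteins (Dkk) occupy Lrp5 and Lrp6, and Axin2 is both a target of the pathway and a part of the complex that shuts it off. In fat, β-catenin signalling is known for holding precursor cells back from becoming adipocytes, and Sfrp5 is known as a protein that fat cells secrete.

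Promoters are shown for 3 genes that passed the test with –10°C/–20°C against 30°C and have an entry in the RefSeq table used (build GRCm38.p6): Sfrp5, because it passed in every cold group, and Sfrp2 and Axin2, an inhibitor and the feedback gene that passed in the coldest group alone against 30°C. Each sequence runs 5′ to 3′ from 250 bases before the annotated start to 50 after it. Capitals mark motif matches. The intervals are chr19:42202203-42202502 on the minus strand for Sfrp5, chr3:83766071-83766370 on the plus strand for Sfrp2 and chr11:108920099-108920398 on the plus strand for Axin2.
Sfrp5: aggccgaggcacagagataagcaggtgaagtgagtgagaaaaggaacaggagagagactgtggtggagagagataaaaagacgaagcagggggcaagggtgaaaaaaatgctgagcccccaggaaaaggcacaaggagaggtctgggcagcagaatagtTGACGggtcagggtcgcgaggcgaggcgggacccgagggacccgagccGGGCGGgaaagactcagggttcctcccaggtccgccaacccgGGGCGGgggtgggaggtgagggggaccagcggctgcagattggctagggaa
Sfrp2: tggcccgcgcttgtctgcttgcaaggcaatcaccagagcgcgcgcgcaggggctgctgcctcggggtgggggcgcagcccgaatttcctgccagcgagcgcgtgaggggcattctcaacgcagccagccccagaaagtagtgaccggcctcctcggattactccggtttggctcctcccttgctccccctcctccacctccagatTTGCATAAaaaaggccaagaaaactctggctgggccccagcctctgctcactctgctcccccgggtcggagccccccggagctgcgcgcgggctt
Axin2: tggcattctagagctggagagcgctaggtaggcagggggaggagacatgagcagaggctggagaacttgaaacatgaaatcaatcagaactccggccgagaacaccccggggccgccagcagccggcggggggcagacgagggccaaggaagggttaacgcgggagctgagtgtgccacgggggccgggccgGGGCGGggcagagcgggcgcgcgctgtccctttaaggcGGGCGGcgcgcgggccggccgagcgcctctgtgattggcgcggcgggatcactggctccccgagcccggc

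The motifs searched, on both strands, were TCF/LEF (CTTTG followed by AA, AT, TA or TT), the GC box GGGCGG, the cyclic AMP half-site TGACG and the C/EBP motif TTGCNNAA. The Sfrp5 window held TGACG at -91 to -87 and a GC box at -43 to -38 and at -1 to 5, counted from the start, with no base 0. Sfrp2 held TTGCATAA at -45 to -38, and Axin2 held GC boxes at -58 to -53 and -20 to -15. No match overlapped another, and a match is a description of letters. Of all 32851 promoters in the table, 16.9% held a TCF/LEF match, 35.7% a GC box, 20.8% the half-site and 10.8% the C/EBP motif. Of the 43 genes, 27 have an entry there, and 4 of those 27 held a TCF/LEF match (Fzd7, Wnt11, Wnt3 and Wnt5b), 21 a GC box, 4 the half-site and 3 the C/EBP motif. Of the 7 genes that passed with –10°C/–20°C against 30°C, 5 have an entry, and 0 of those 5 held a TCF/LEF match. Among these 5, 3 held a GC box (Axin2, Fzd4 and Sfrp5), 1 the half-site (Sfrp5) and 1 the C/EBP motif (Sfrp2).

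With –10°C/–20°C against 30°C, 7 of the 43 genes passed limma's test at an adjusted p under 0.05, or 16.3%, where 18.2% of all genes tested did: as a share, the Wnt genes lay near the background. Of these, 6 were lower (Sfrp1, Sfrp2, Sfrp5, Fzd4, Rspo1 and Axin2) and 1 was higher (Fzd3), while 11.0% of all genes were lower and 7.19% higher. In 11 of the 43 genes all 3 –10°C/–20°C arrays lay below all 3 arrays of 30°C, against 2815 of all 14860 genes (18.9%), and in 1 gene all lay above, against 11.7%. Rspo2, 1 of these 11, was below background on every array. The median log2 fold change was -0.08 over the 43 genes and -0.03 over all genes. With each array centred on its median, 1905 of all genes were higher and 1004 lower, against 1068 higher and 1639 lower as deposited, and 5 of the 43 genes passed, without Fzd4 and Rspo1. The number called was 2 of 43 (Sfrp2 and Sfrp5) when the name form entered the model as a block.

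Fewer genes passed at the milder temperatures. With –10°C against 30°C, 2 of 43 passed, where 8.34% of all genes did: Fzd3 was higher, as were 5.3% of all genes, and Sfrp5 lower, as were 3.03%. With 4°C against 30°C only Sfrp5 passed, and it was lower. Of all genes 3.04% passed there, 0.942% as lower. These 3 comparisons share the 30°C arrays. Between cold groups, the coldest group had 1 gene lower than –10°C, Wnt5a, where 7.16% of all genes passed and 5.14% were lower. It had 2 genes lower than 4°C, Wnt5a and Sfrp4, where 9.77% of all genes passed and 7.24% were lower. With –10°C against 4°C limma called 0 of 43, where 0.0404% of all genes passed. There 1 gene, Fzd3, had an unadjusted p under 0.05, and the methods' t-test also called 0. The F-test over the 4 groups called 4 genes (Fzd3, Sfrp1, Sfrp5 and Wnt5a), where 17.1% of all genes passed.

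**Figure D1:**
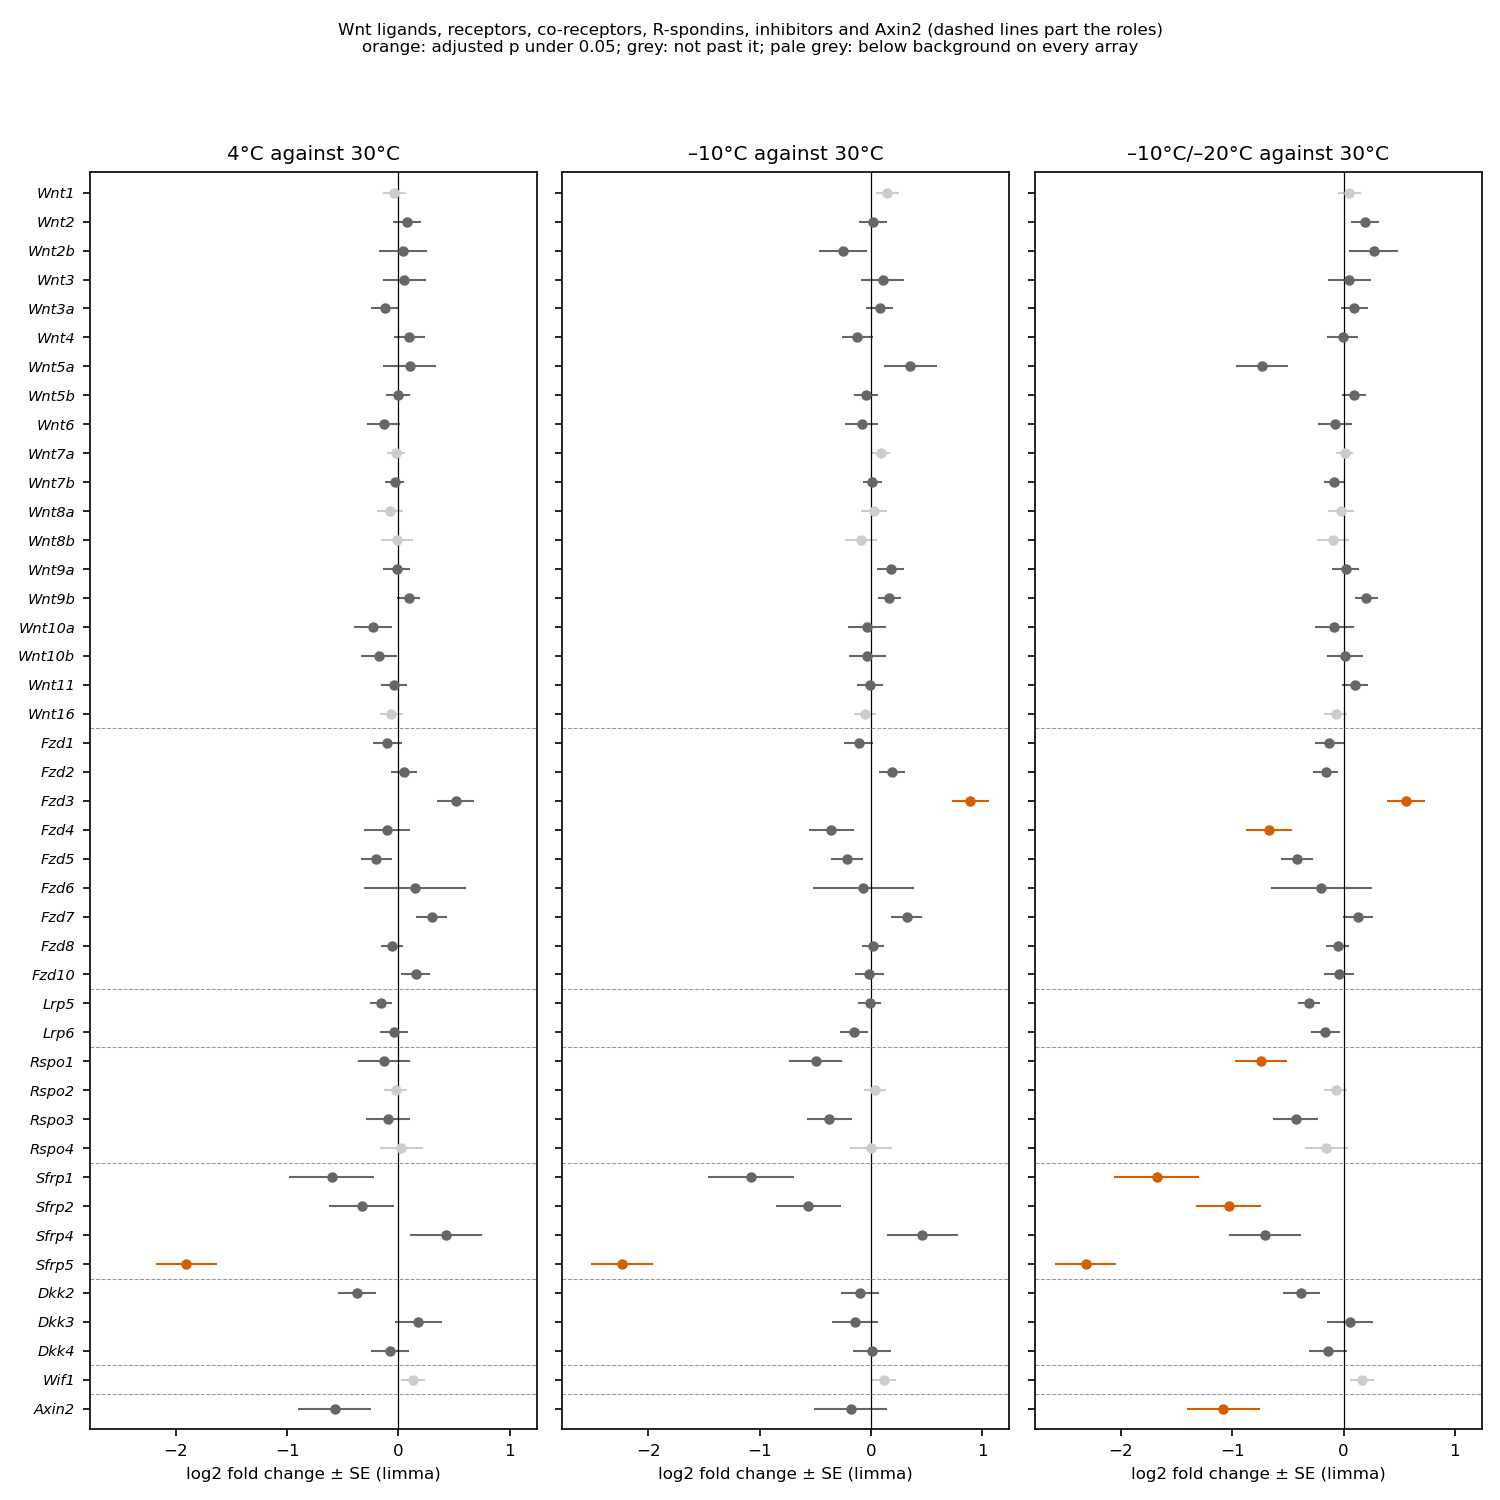
Log2 fold change with its standard error (x axis) of each of the 43 genes (y axis, grouped by role) in each cold group against 30°C, from 4°C on the left to the coldest on the right. Sfrp5 lies far to the left in all 3 panels (-1.91, -2.24 and -2.32), Fzd3 lies to the right, and the 19 ligands cluster around 0 apart from Wnt5a with –10°C/–20°C (-0.73).

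Of the 43 genes, 30 were above background on all 12 arrays and 8 on none: Wnt1, Wnt7a, Wnt8a, Wnt8b, Wnt16, Rspo2, Rspo4 and Wif1. The remaining 5 crossed the level on some arrays: Sfrp4 on 9, Wnt2 on 8, and Wnt3, Fzd10 and Dkk4 on 1 each. A gene below background can still be expressed at a level this array does not register.

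No ligand passed the test against 30°C. Of the 19 Wnt ligands 12 were above background on every array, and 0 of 19 were called with any cold group. The unadjusted p was under 0.05 for 1 ligand, Wnt5a, in the coldest group, and the methods' t-test called 0 there. Relative to 30°C, their log2 fold changes lay between -0.23 and 0.10 at 4°C, between -0.25 and 0.35 at –10°C and between -0.73 and 0.27 in the coldest group. Wnt10b, a ligand known to restrain fat cell formation, averaged 5.66 ± 0.08 log2 signal at 30°C, 5.48 ± 0.32 at 4°C, 5.62 ± 0.23 at –10°C and 5.67 ± 0.17 at –10°C/–20°C (SD, n = 3 each).

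Wnt5a, which signals mainly without β-catenin, differed between the cold groups. Its log2 signal was 6.17, 6.29 and 6.71 at 30°C, 6.33, 6.76 and 6.39 at 4°C, 6.69, 6.50 and 7.03 at –10°C, and 5.24, 5.56 and 6.17 at –10°C/–20°C. All 3 –10°C/–20°C arrays lay below every –10°C and 4°C array, and the highest of them touched the lowest 30°C array. Wnt5a was 2.12-fold lower with –10°C/–20°C than with –10°C (-1.09 ± 0.24 SE on the log2 scale, adjusted p = 0.021, limma) and 1.78-fold lower than with 4°C (-0.83 ± 0.24, adjusted p = 0.0496). Against 30°C the log2 fold change was -0.73 (adjusted p = 0.054, limma). This difference passed with only genes above background on at least 3 arrays (adjusted p = 0.042) and with the replicate number as a block (adjusted p = 0.023). The call against 4°C was lost after repeated quantile normalization and after centring on the array median. With the replicate number as a block, 2 genes passed in the coldest group against –10°C, Sfrp4 beside Wnt5a. Without the block, the Wnt5a call against –10°C was lost without replicate 1 or 3 of –10°C or replicate 1 or 2 of –10°C/–20°C (log2 fold change -1.11 to -0.88, adjusted p = 0.054 to 0.084), and that against 4°C stood only without replicate 3 of 30°C or of –10°C/–20°C (adjusted p = 0.053 to 0.16 in the other 10 fits that left out an array).

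Among the 9 Frizzled receptors, 8 were above background on every array. In the coldest group 1 was higher than at 30°C, 1 was lower and 7 did not pass, where 7.19% of all genes were higher and 11.0% lower. Fzd3, a receptor known from planar polarity and axon guidance, gave log2 signals of 4.73, 5.03 and 5.35 at 30°C, 5.60, 5.73 and 5.32 at 4°C, 5.82, 6.02 and 5.95 at –10°C, and 5.37, 5.63 and 5.80 at –10°C/–20°C. Every –10°C and –10°C/–20°C array lay above all 30°C arrays, although the lowest –10°C/–20°C array cleared the highest 30°C array by little. Fzd3 was 1.86-fold higher with –10°C (0.89 ± 0.17 SE on the log2 scale, adjusted p = 0.0080) and 1.48-fold higher with –10°C/–20°C (0.56 ± 0.17, adjusted p = 0.039) than with 30°C. With 4°C the difference was 0.51 (adjusted p = 0.15).

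The –10°C call of Fzd3 stood in each of the 12 fits that left out an array, and not with the name form as a block (0.85, adjusted p = 0.079). Among the 8 arrays of the second name form, where 30°C is left with replicate 3 alone, its log2 fold change was 0.58 with –10°C (adjusted p = 0.25) and 0.25 with –10°C/–20°C (adjusted p = 0.53). With 4°C it was -0.03 in those arrays and 0.79 in the 4 arrays of the first form. The –10°C/–20°C call was lost in 8 of the 12 fits, namely without replicate 1 or 2 of 30°C, replicate 1 of 4°C, any –10°C array or replicate 2 or 3 of –10°C/–20°C (0.41 to 0.56, adjusted p = 0.050 to 0.14).

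Fzd4, a receptor for Wnts and for norrin that is known for its role in vessel growth, gave 10.40, 10.46 and 10.68 at 30°C, 10.44, 10.27 and 10.52 at 4°C, 10.47, 9.63 and 10.37 at –10°C, and 10.13, 9.66 and 9.74 at –10°C/–20°C. The –10°C/–20°C arrays were all below those of 30°C and 4°C, and the –10°C group was split, with replicate 2 low. Fzd4 was 1.59-fold lower in the coldest group than at 30°C (-0.67 ± 0.20, adjusted p = 0.042). The call was lost without any 30°C array, replicate 1 or 3 of 4°C or replicate 2 or 3 of –10°C/–20°C (-0.73 to -0.58, adjusted p = 0.052 to 0.14).

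The other 7 Frizzled genes did not pass. Fzd5 differed by -0.42 with –10°C/–20°C against 30°C, with all 3 arrays below, and did not pass (adjusted p = 0.067). Fzd6 had the widest spread of all 43 genes, 0.93 (SD) at 4°C, where replicate 2 stood at 8.50 and the others at 6.96 and 6.84. The co-receptors, which hold the ligand together with Frizzled, did not pass either. Lrp5 averaged 8.33 ± 0.04 at 30°C, 8.17 ± 0.11 at 4°C, 8.32 ± 0.13 at –10°C and 8.02 ± 0.13 at –10°C/–20°C, with a log2 fold change of -0.31 in the coldest group against 30°C (adjusted p = 0.053), and its 3 arrays all lay below those of 30°C. Lrp6 averaged 9.06 ± 0.21 at 30°C, 9.02 ± 0.05 at 4°C, 8.91 ± 0.04 at –10°C and 8.90 ± 0.23 at –10°C/–20°C, and each cold group overlapped the 30°C arrays.

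Of the 4 R-spondins, Rspo1 and Rspo3 were above background on all arrays, and Rspo2 and Rspo4 on none. Rspo1 gave 9.57, 9.30 and 9.35 at 30°C, 9.29, 9.89 and 8.65 at 4°C, 8.84, 9.00 and 8.89 at –10°C, and 8.55, 8.74 and 8.70 at –10°C/–20°C. The –10°C and –10°C/–20°C arrays lay tightly together below all 30°C arrays, while the 4°C arrays reached both above and below the 30°C range. With –10°C/–20°C, Rspo1 was 1.67-fold lower than with 30°C (-0.74 ± 0.24, adjusted p = 0.0496), at the edge of the threshold: the call stood only without replicate 2 or 3 of 4°C and was lost without any of the other 10 arrays (-0.80 to -0.66, adjusted p = 0.066 to 0.14). It was also lost with the name form as a block (-0.40, adjusted p = 0.39). Rspo3 differed by -0.43 (adjusted p = 0.18).

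The secreted frizzled-related proteins carried the largest differences. All 4 had every –10°C/–20°C array below every 30°C array, as had 18.9% of all genes. In that comparison 3 of the 4 passed the test as lower, where 11.0% of all genes did. Sfrp5 gave 7.65, 7.55 and 7.22 at 30°C, 5.50, 6.02 and 5.18 at 4°C, 4.97, 5.21 and 5.53 at –10°C, and 5.64, 4.58 and 5.25 at –10°C/–20°C. No cold array reached within 1 log2 unit of the lowest 30°C array, and the 3 cold groups overlapped each other. Relative to 30°C, Sfrp5 was 3.75-fold lower at 4°C (-1.91 ± 0.27 SE, adjusted p = 0.0055), 4.72-fold lower at –10°C (-2.24 ± 0.27, adjusted p = 0.0013) and 4.99-fold lower in the coldest group (-2.32 ± 0.27, adjusted p = 2.2e-04). Between –10°C/–20°C and 4°C the difference was -0.41 (adjusted p = 0.46).

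The 3 Sfrp5 calls stood in each fit that left out 1 of the 12 arrays. Within the 4 arrays of the first name form, Sfrp5 was lower with 4°C than with 30°C by -1.84 on the log2 scale, and within the other 8 arrays by -2.04 with 4°C, -1.98 with –10°C and -2.06 in the coldest group. With these fewer arrays the call stood for –10°C/–20°C (adjusted p = 0.025) and not for –10°C (0.090) or 4°C (0.23 in the 8 arrays and 0.17 in the 4). The methods' t-test, which draws no spread from other genes, gave adjusted p = 0.22 for 4°C, 0.074 for –10°C and 0.053 for the coldest group.

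**Figure D2:**
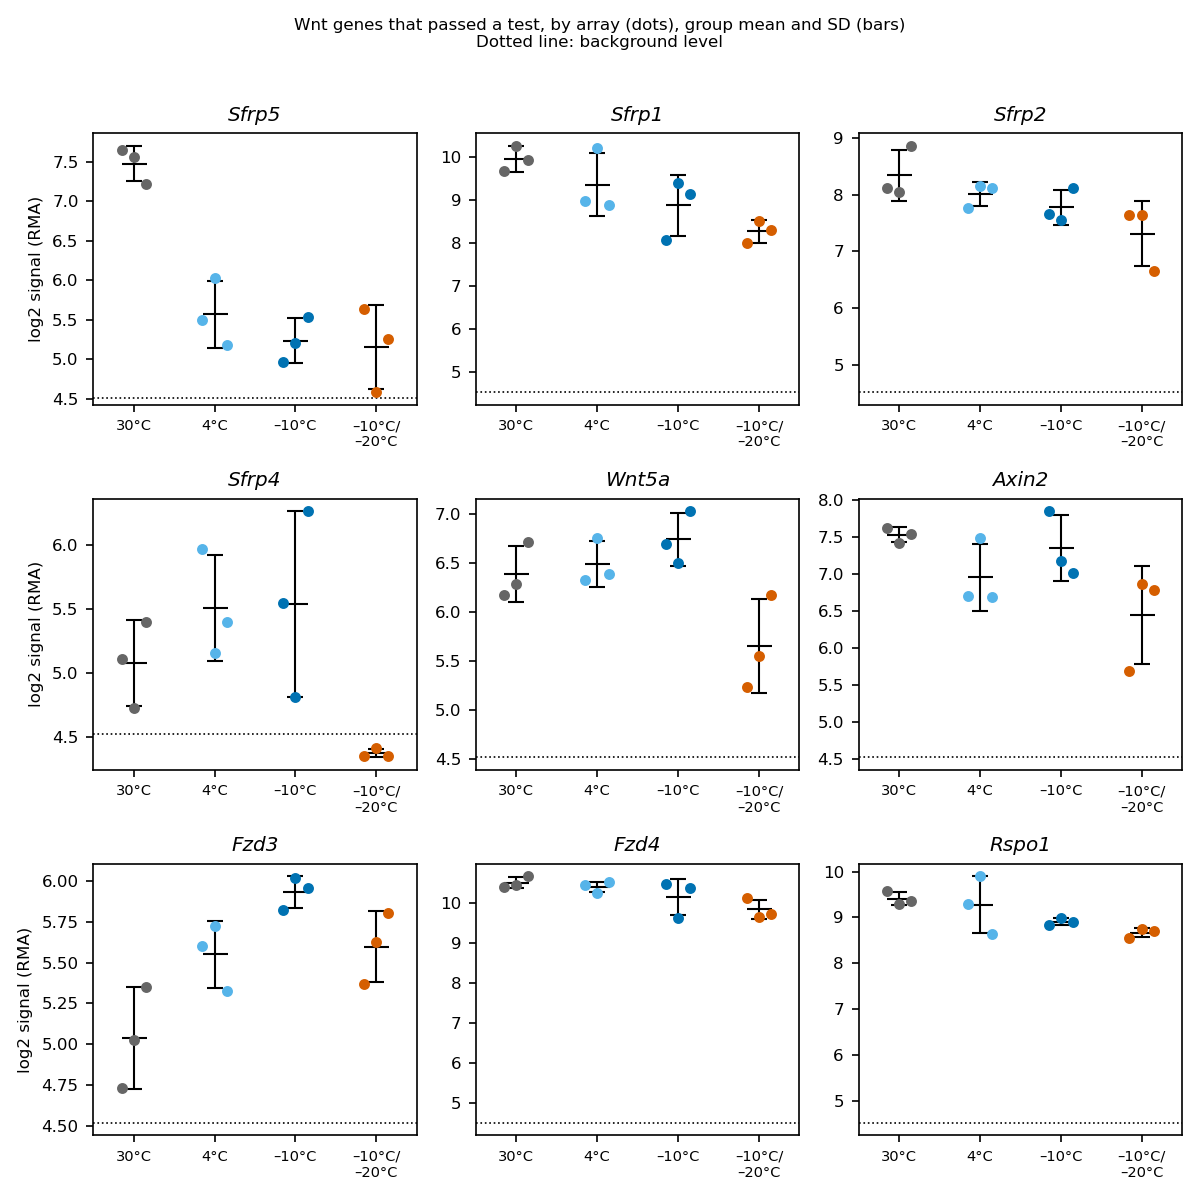
Log2 signal (y axis) on each array (dots) with group mean and SD (bars), for the 9 genes that passed a test, from 30°C on the left to the coldest group on the right, with the background level of 4.52 as a dotted line and a separate y range in each panel. Sfrp5 drops between 30°C and every cold group, and Sfrp4 is under the background line with –10°C/–20°C alone. By group mean, Sfrp1 and Sfrp2 are lowest with –10°C/–20°C and Wnt5a is highest with –10°C.

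Sfrp1, a Wnt-binding inhibitor made by many stromal cells, gave 9.66, 10.26 and 9.93 at 30°C, 8.97, 10.20 and 8.89 at 4°C, 8.08, 9.40 and 9.14 at –10°C, and 7.99, 8.52 and 8.30 at –10°C/–20°C. The –10°C and –10°C/–20°C arrays all lay below 30°C, and replicate 2 of 4°C lay inside the 30°C range. Sfrp1 was 3.21-fold lower in the coldest group than at 30°C (-1.68 ± 0.39, adjusted p = 0.011). The log2 fold change was -1.08 with –10°C (adjusted p = 0.13) and -0.60 with 4°C (adjusted p = 0.59). The –10°C/–20°C call stood in each fit that left out an array, and not with the name form as a block (-1.44, adjusted p = 0.091) or in the 8 arrays of the second form (-1.66, adjusted p = 0.085).

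Sfrp2, a close relative of Sfrp1, gave 8.12, 8.04 and 8.86 at 30°C, 7.76, 8.16 and 8.12 at 4°C, 7.66, 7.55 and 8.12 at –10°C, and 7.64, 7.64 and 6.65 at –10°C/–20°C. The coldest arrays lay below every 30°C and 4°C array and overlapped those of –10°C, and replicate 3 stood well under its 2 companions. Sfrp2 was 2.04-fold lower in the coldest group than at 30°C (-1.03 ± 0.29, adjusted p = 0.031). Without that array the value was -0.70 (adjusted p = 0.10), and without replicate 3 of 30°C it was -0.77 (adjusted p = 0.11).

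Sfrp4 went below background with –10°C/–20°C alone. Its signal was 5.10, 4.73 and 5.40 at 30°C, 5.97, 5.15 and 5.40 at 4°C, 5.54, 4.81 and 6.26 at –10°C, and 4.35, 4.41 and 4.35 at –10°C/–20°C. Because the coldest arrays hold only an upper bound, folds are given as at least, from the mean of the brighter group over the background level. Sfrp4 was at least 1.98-fold lower with –10°C/–20°C than with 4°C (adjusted p = 0.048), a gene singled out after its values were seen, and the call was lost without any 30°C or 4°C array, replicate 1 of –10°C or any –10°C/–20°C array (adjusted p = 0.054 to 0.17). The differences of at least 2.03-fold from –10°C (adjusted p = 0.051) and at least 1.47-fold from 30°C (adjusted p = 0.17) did not pass.

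The remaining inhibitors did not pass any comparison. Dkk2 averaged 5.20 ± 0.18 at 30°C, 4.83 ± 0.29 at 4°C, 5.10 ± 0.04 at –10°C and 4.83 ± 0.29 at –10°C/–20°C, with a log2 fold change of -0.38 in the coldest group against 30°C (adjusted p = 0.16). Dkk3, a divergent Dickkopf, differed by 0.06 with –10°C/–20°C (adjusted p = 0.92). Wif1, which binds Wnts through its own domain, was below background on all 12 arrays.

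Axin2, the feedback gene, gave 7.62, 7.42 and 7.54 at 30°C, 6.69, 7.48 and 6.69 at 4°C, 7.85, 7.17 and 7.01 at –10°C, and 5.68, 6.87 and 6.78 at –10°C/–20°C. All –10°C/–20°C arrays lay below all 30°C and –10°C arrays, while replicate 2 of 4°C and replicate 1 of –10°C lay in or above the 30°C range. Replicates 1 and 3 of 4°C lay below replicates 2 and 3 of –10°C/–20°C. Against 4°C the coldest group differed by -0.51, which did not pass (adjusted p = 0.43, limma). Axin2 was 2.12-fold lower in the coldest group than at 30°C (-1.08 ± 0.33, adjusted p = 0.041). Replicate 1 of –10°C/–20°C was the lowest array, and without it the difference was -0.70 and the call was lost, as it also was without any 30°C array, replicate 1 of 4°C or replicate 2 of –10°C (adjusted p = 0.052 to 0.12 over these 6 fits). It was also lost with the replicate number as a block (-1.08, adjusted p = 0.054) and with the name form as a block (-0.95, adjusted p = 0.21). The differences of -0.57 with 4°C and -0.18 with –10°C, each against 30°C, did not pass.

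**Figure D3:**
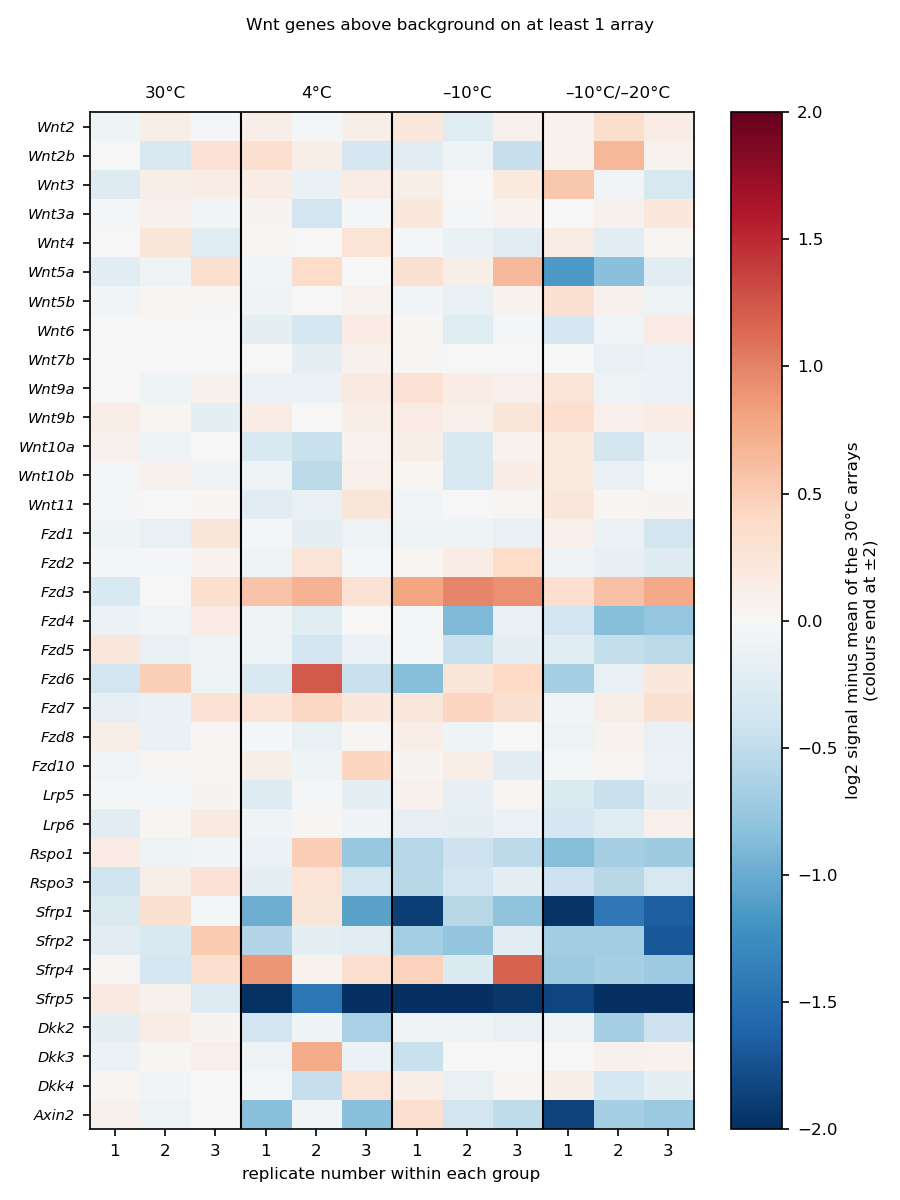
Log2 signal of each array minus the mean of the 30°C arrays (colour scale, cut at 2 in both directions) for the genes above background on at least 1 array (rows), by group and replicate (columns). Sfrp5 is blue and Fzd3 is red on every cold array, and Fzd6 is red on replicate 2 of 4°C. Sfrp1 and Axin2 are each bluest on replicate 1 of –10°C/–20°C. Replicate 1 of –10°C for Sfrp1, and replicates 1 and 3 of 4°C for Axin2, are bluer than replicates 2 and 3 of –10°C/–20°C.

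Other genes of the pathway were taken from 5 lists. In the coldest group against 30°C, the share of each list that passed lay between 7.69% and 30.0%, always as lower, where 11.0% of all genes were lower and 7.19% higher. Of 15 secretion and extracellular modulators, 3 were lower and 0 higher with –10°C/–20°C against 30°C: Apcdd1, a membrane inhibitor of Wnt receptors (-1.18, adjusted p = 0.0063), Gpc3, a glypican (-0.73, adjusted p = 0.048), and Porcn, the acyltransferase that lipid-modifies Wnts (-0.48, adjusted p = 0.020). Of 11 alternative receptors and planar polarity genes, Daam1, a formin that binds Dishevelled, was lower (-0.70, adjusted p = 0.012). Of 13 destruction complex and transducer genes, Btrc, an F-box protein that marks β-catenin for breakdown, was lower (-0.42, adjusted p = 0.015). Of 10 nuclear factors, 3 were lower: Tcf7l2 (-0.89, adjusted p = 0.0027), the β-catenin cofactor Bcl9 (-0.57, adjusted p = 0.0041) and Tcf7l1 (-0.48, adjusted p = 0.035). Of 12 target genes, 3 were lower: Nkd1, a feedback gene (-0.86, adjusted p = 0.019), Cd44, the hyaluronan receptor (adjusted p = 4.2e-04), whose coldest mean of 4.45 lay under the background level, with 1 of the 3 arrays above it, against 5.24 at 30°C, and Myc (-0.71, adjusted p = 0.044). As deposited, no gene of the 5 lists was higher with –10°C/–20°C. With each array centred on its median, 1905 of all genes were higher and 1004 lower, so the balance of directions depended on the scaling.

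Against 4°C, Apcdd1 was 3.26-fold lower with –10°C/–20°C (-1.70, adjusted p = 0.0018), with signals of 7.08, 6.14 and 6.80 with –10°C/–20°C and of 8.54, 8.37 and 8.22 with 4°C. Tcf7l2 gave 7.52, 7.14 and 6.87 with –10°C/–20°C and 8.30, 7.85 and 8.04 with 30°C, and the groups did not overlap. In the milder cold groups Myc was lower with –10°C (-1.02, adjusted p = 0.015), and Gpc4, another glypican, was higher with 4°C (0.55, adjusted p = 0.026) and with –10°C (0.41, adjusted p = 0.047), each against 30°C. Ctnnb1, which encodes β-catenin, averaged 9.91 ± 0.31 at 30°C, 10.04 ± 0.20 at 4°C, 10.09 ± 0.19 at –10°C and 9.91 ± 0.17 at –10°C/–20°C. The groups overlapped.

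Markers of some other cells in fat also differed in the same comparison. Among the other lists, 0 of 7 smooth muscle and pericyte, 0 of 3 Schwann cell and 0 of 4 skeletal muscle markers passed. The same held for 0 of 2 red blood cell and 0 of 9 epididymis and testis markers, 5 of these 9 being below background on every array. Of all genes, 18.2% passed. In whole tissue, fewer cells of a type and less RNA per cell cannot be told apart. Of 12 stromal progenitor and matrix markers, 5 (41.7%, where 11.0% of all genes were lower) were lower with –10°C/–20°C against 30°C (with the collagen genes Col3a1, -2.15, Col1a1, -2.08, and Col1a2, -1.79, and Lum, -1.53, as the largest), and the list averaged 8.20 to 8.38 with –10°C/–20°C and 9.09 to 9.36 with 30°C. It averaged 9.02 to 9.31 with 4°C and 8.76 to 9.28 with –10°C. The 8 mesothelial markers averaged 7.27 to 7.41 with –10°C/–20°C, 7.25 to 7.48 with –10°C, 7.23 to 8.05 with 4°C and 7.59 to 7.86 with 30°C. Of those 8, 1 (12.5%, where 11.0% of all genes were lower), Wt1, was lower with –10°C/–20°C against 30°C (-0.42, adjusted p = 0.014).

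Replicate 2 of 4°C had the highest mesothelial average of all 12 arrays, 8.05. Of the 4°C arrays it also had the highest stromal average, 9.31. The 6 macrophage markers averaged 7.86 to 8.21 with –10°C/–20°C, 8.08 to 8.35 with –10°C, 8.53 to 8.64 with 4°C and 8.79 to 9.19 with 30°C. Of these 6, 4 (66.7%) were lower with –10°C/–20°C against 30°C, where 11.0% of all genes were lower. The 7 lymphocyte markers averaged 4.55 to 4.93 with –10°C/–20°C, 4.50 to 5.77 with –10°C, 4.94 to 5.90 with 4°C and 5.38 to 5.95 with 30°C. Of these 7, 2 (28.6%, against the same 11.0%), Cd3g and Cd4, were lower. The 8 endothelial markers averaged 8.60 to 8.74 with –10°C/–20°C and 8.64 to 8.70 with 30°C. Of these 8, Kdr was higher and Cldn5 lower (25.0%), where 18.2% of all genes passed. The 8 adipocyte markers averaged 10.32 to 10.63 with –10°C/–20°C and 11.10 to 11.27 with 30°C, and Lep, the leptin gene, was lower (-6.48, adjusted p = 3.4e-04) while Slc2a4 (0.68, adjusted p = 0.021) and Pnpla2 (0.32, adjusted p = 0.026) were higher. The median log2 fold change of the 8 adipocyte markers was 0.07, and 1 of 8 was lower and 2 higher, where 11.0% of all genes were lower and 7.19% higher. No gene of the stromal, mesothelial, macrophage, endothelial or adipocyte lists was below background on all arrays, and 1 of the 7 lymphocyte markers was. The part of these markers in the differences of the Wnt genes was not tested.

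**Figure D4:**
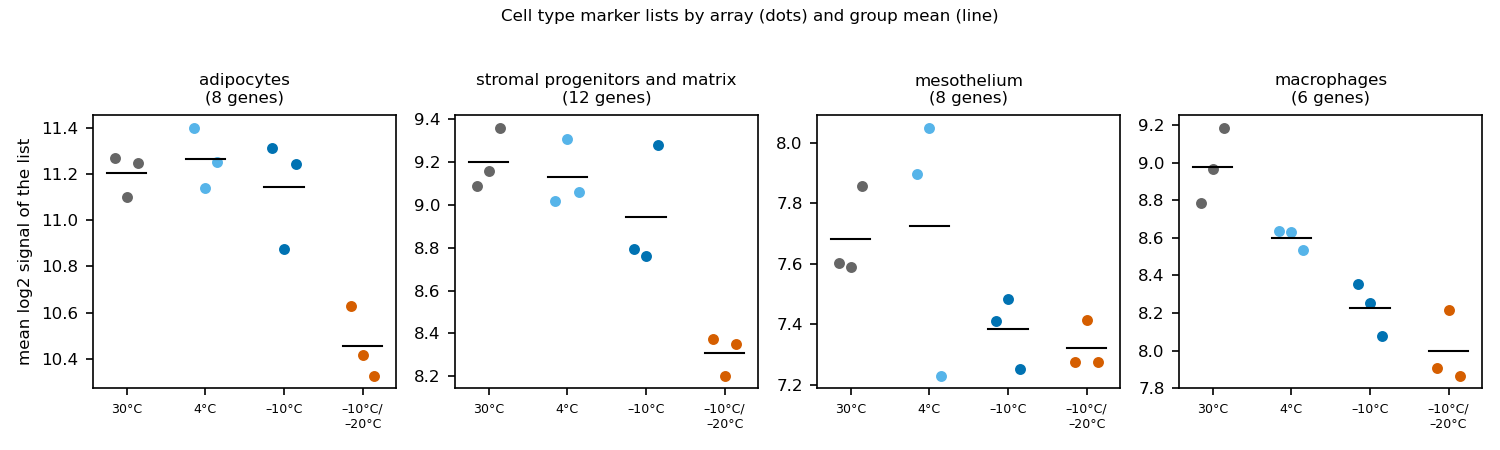
Mean log2 signal (y axis) of 4 cell type marker lists on each array (dots) with the group mean (line), from 30°C on the left to the coldest group on the right, with a separate y range in each panel. The stromal list lies between 8.20 and 8.38 with –10°C/–20°C, under all 9 other arrays, and the macrophage list lies between 7.86 and 8.21 there, under every 30°C and 4°C array.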

How the data were processed

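RNA of 12 eWAT samples was hybridised to Affymetrix exon arrays. The deposited values are log2 signals that the authors made with RMA in Affymetrix Expression Console (background correction, quantile normalization and summary per probe set). No version of either was found in the sources used. The precision of each mean is set by the 3 arrays per group. Of 23332 rows, 14996 had 1 gene symbol, 1019 several and 7317 none in the platform annotation. Rows with 1 symbol were kept, with the brightest row per gene, giving 14860 genes.

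Groups were compared with limma (version 3.58.1, R 4.3.3): 1 linear model over all 12 arrays, empirical Bayes moderation, 6 contrasts and an F-test, with Benjamini-Hochberg adjustment over all genes and a threshold of 0.05. Genes were described array by array where they passed the F-test or a contrast with 30°C. In roles with none, the 2 brightest were described. Of each other list, up to 4 genes were named by size of change among those past the test. Sfrp4, Wnt10b, Fzd5, Fzd6, Rspo3, Gpc4 and Ctnnb1 were singled out after their values were seen. The members and lists were chosen with earlier results of these data known.

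The script was tested on simulated data. Replicate numbers come from the labels, which give them no shared source. Deviations of same-numbered arrays correlated above 0.1 in all 3 pairs only between –10°C/–20°C and –10°C, where the blocked count is given beside the result. Alternatives were a repeated quantile normalization, centring on the array median, a background filter (3 arrays), the mean of a gene's rows, robust moderation with a trend, array weights, blocks for replicate number and name form, only the groups compared, the methods' t-test or analysis of variance, and each array left out. The 2 subsets by name form were added after seeing the data. Promoters came from RefSeq (GRCm38.p6).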

Additional observations from a re-analysis of the deposited data

How the results depend on the processing

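The counts of Wnt genes past the threshold depended on the settings. Against 30°C, and listed from 4°C to the coldest group, they were 1, 2 and 7 of 43 as reported, 5, 4 and 11 with array weights, 0, 0 and 2 with the methods' t-test, 1, 1 and 2 with the name form as a block, and 0, 0 and 2 in the 8 arrays of the second name form. In the 4 arrays of the first form, 4°C against 30°C gave 0. With –10°C/–20°C against –10°C the reported count of 1 became 2 with the background filter, 0 with only the arrays of the groups compared, 3 with array weights, 0 with the t-test and 0 in the 8 arrays. With –10°C/–20°C against 4°C the count of 2 became 0 with repeated quantile normalization, median centring, the name-form block, the t-test and the 8 arrays, and 1 with only the groups compared. The F-test count of 4 became 10 with array weights, 1 with the name-form block, 1 with the analysis of variance and 0 in the 8 arrays. The cause of these shifts was not tested, although the subsets by name form hold fewer arrays and were chosen after seeing the data.

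Leaving out each array in turn gave, against 30°C, 1 to 2 genes at 4°C, 2 to 3 at –10°C and 3 to 8 in the coldest group. The coldest group gave 0 to 2 against –10°C and 0 to 2 against 4°C, –10°C against 4°C gave 0 to 0, and the F-test 1 to 5. Against –10°C the count was 0 without replicate 1 or 3 of –10°C or 1 or 2 of –10°C/–20°C and 2 without replicate 2 of 4°C or of –10°C. Against 4°C it was 0 without replicate 1 or 2 of 30°C, 1 of 4°C, 1 of –10°C or 1 or 2 of –10°C/–20°C, and 1 without replicate 3 of any group or 2 of 4°C. Against 30°C, 4°C had 2 without replicate 3 of 30°C. The count of 7 was lowest without replicate 2 or 3 of 30°C or replicate 1 of 4°C (3 each) and was 4 without replicate 1 of 30°C, replicate 2 of –10°C or replicate 2 or 3 of –10°C/–20°C. The F-test count was 1 without replicate 2 of 30°C and 2 without replicate 1 of 30°C or replicate 1 or 2 of –10°C/–20°C.

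Deviations of same-numbered arrays correlated between -0.39 and 0.54. They correlated above 0.1 in all 3 pairs only for –10°C/–20°C with –10°C (0.45, 0.21 and 0.41). In the other comparisons some same-numbered pairs also correlated, such as replicate 2 of 30°C and of 4°C (0.54). Arrays of unlike number correlated too, such as replicate 3 of 4°C with replicate 1 of –10°C (0.60). Whether same-numbered arrays share a source is therefore not known. With the replicate number as a block the counts against 30°C were 1 at 4°C, 3 at –10°C and 8 in the coldest group. They were 0 for –10°C against 4°C, 2 for the coldest group against –10°C, 3 for it against 4°C, and 5 for the F-test. Against 30°C the block removed the call of Axin2 (adjusted p = 0.054) and added Wnt5a (0.023) and Fzd5 in the coldest group and Sfrp1 (0.021) at –10°C. In the coldest group against 30°C, the all-gene median log2 fold change was 0.13 after median centring and -0.03 as deposited. Centring left 1905 genes higher and 1004 lower, against 1068 and 1639 as reported, and 1487 and 1488 after repeated quantile normalization. No Wnt gene called as reported changed direction, in the comparison where it was called, under any setting run. Fzd3 with 4°C against 30°C, not called as reported, was called with array weights (0.55, adjusted p = 0.011) and was -0.03 in the 8 arrays.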
